A study of Mus musculus with 4 samples.

Results

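The MHC class II genes and their transactivator *Ciita* were examined in neonatal polymorphonuclear myeloid-derived suppressor cells (PMN-MDSCs), which are immature neutrophils that restrain T cells. The 10 genes, of 28585 listed, were taken by symbol: the classical chains *H2-Aa*, *H2-Ab1* and *H2-Eb1*, the invariant chain *Cd74*, the peptide-loading genes *H2-DMa*, *H2-DMb1*, *H2-DMb2*, *H2-Oa* and *H2-Ob*, and *Ciita*. Bulk RNA sequencing was performed on PMN-MDSCs (CD11b+ Ly6C lo/- Ly6G+) from spleens of C57BL/6J pups on postnatal day 7. There were 2 libraries of genotype *Dhps* cko, in which Cre driven by the *Lysm* gene (*Lyz2*) removes floxed *Dhps*, and 2 libraries of genotype *Dhps* flox, which carry the same floxed alleles without Cre. *Dhps* encodes deoxyhypusine synthase, which begins the conversion of a lysine of eIF5A to hypusine. *Lysm*-Cre acts in myeloid cells in general, including monocytes and macrophages, so the deletion is not particular to PMN-MDSCs. The sources used here do not say whether a library came from 1 pup or from a pool, so the p-values below measure the spread between these libraries, which may be technical. Mice of both sexes were used in the study, and the labels give no sex for a library.

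MHC class II molecules present peptides from endosomes to CD4+ T cells. An alpha and a beta chain assemble with the invariant chain *Cd74*, proteases cut *Cd74* down to a short fragment in the groove, and the DM heterodimer exchanges that fragment for peptide while the DO heterodimer restrains DM. Dendritic cells, B cells and macrophages are known for high class II levels, whereas neutrophils are known for low ones. Transcription depends on *Ciita*, which does not bind DNA itself but joins a complex of RFX, CREB and NF-Y factors on the X, X2 and Y boxes upstream of these genes.

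Promoter windows of 7 of the 10 genes (8 windows, *H2-DMa* having 2) were found in RefSeq (GRCm38.p6), each reaching from 250 bases before the transcript start to 50 bases after it. Those of *H2-Ab1*, *Cd74* and *Ciita* were not analysed here. The 6 sequences printed here are the stretches from 150 to 31 bases before the start, shown because the boxes through which *Ciita* is known to act lie in this stretch of class II promoters, although not every sequence matched the letters of each box. They lie at chr17:34305717-34305836 (*H2-Eb1*), chr17:34238755-34238874 (*H2-Ob*), chr17:34153041-34153160 (*H2-DMb1*), chr17:34145099-34145218 (*H2-DMb2*) and chr17:34092229-34092348 (*H2-Oa*) on the plus strand, and at chr17:34287854-34287973 (*H2-Aa*) on the minus strand. Each is written 5′ to 3′ in the direction of transcription. Capitals mark the letters searched: AACNNNTGA for the X box, TGACGTCA for the X2 box and GATTGG for the Y box, an inverted CCAAT.
H2-Eb1: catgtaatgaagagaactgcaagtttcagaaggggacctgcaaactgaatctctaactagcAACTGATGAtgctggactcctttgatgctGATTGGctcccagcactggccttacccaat
H2-Ob: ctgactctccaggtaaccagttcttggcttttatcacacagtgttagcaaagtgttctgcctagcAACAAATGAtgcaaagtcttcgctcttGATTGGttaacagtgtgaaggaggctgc
H2-DMb1: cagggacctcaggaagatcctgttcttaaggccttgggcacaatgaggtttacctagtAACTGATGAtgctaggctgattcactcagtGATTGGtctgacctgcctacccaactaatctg
H2-DMb2: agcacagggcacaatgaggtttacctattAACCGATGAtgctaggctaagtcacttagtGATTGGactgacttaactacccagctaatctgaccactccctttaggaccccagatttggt
H2-Aa: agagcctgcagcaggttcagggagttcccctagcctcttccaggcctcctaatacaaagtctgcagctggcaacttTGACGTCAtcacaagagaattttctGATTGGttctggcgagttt
H2-Oa: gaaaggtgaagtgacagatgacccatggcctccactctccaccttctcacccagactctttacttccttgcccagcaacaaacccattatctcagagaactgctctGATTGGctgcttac

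Each motif was searched on both strands, and the motifs were chosen with these windows in view, so the matches are a description and not a test. The first 4 sequences held X box letters followed by Y box letters. X box letters began 89 bases before the start in *H2-Eb1*, 85 in *H2-Ob*, 92 in *H2-DMb1* and 121 in *H2-DMb2*. The Y box letters began 60, 58, 62 and 91 bases before the start in the same order. *H2-Eb1* also had Y box letters on the opposite strand at 35 bases, which cross the end of the printed stretch and are not in capitals. Of the *H2-DMa* windows, which are not printed, 1 held Y box letters at 199 bases, and neither held X box letters. In *H2-Aa*, X2 box letters began at 74 bases and Y box letters at 49 bases, and in *H2-Oa* only Y box letters were found, at 44 bases. The Y box letters were in 16.11% of all 32851 RefSeq windows of this length, the X box letters in 11.92% and the X2 box letters in 1.79%. An X box with a Y box on the same strand starting 15 to 45 bases after it was in 44 windows (0.13%), of which 4 were those of *H2-Eb1*, *H2-Ob*, *H2-DMb1* and *H2-DMb2*.

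**Figure D1:**
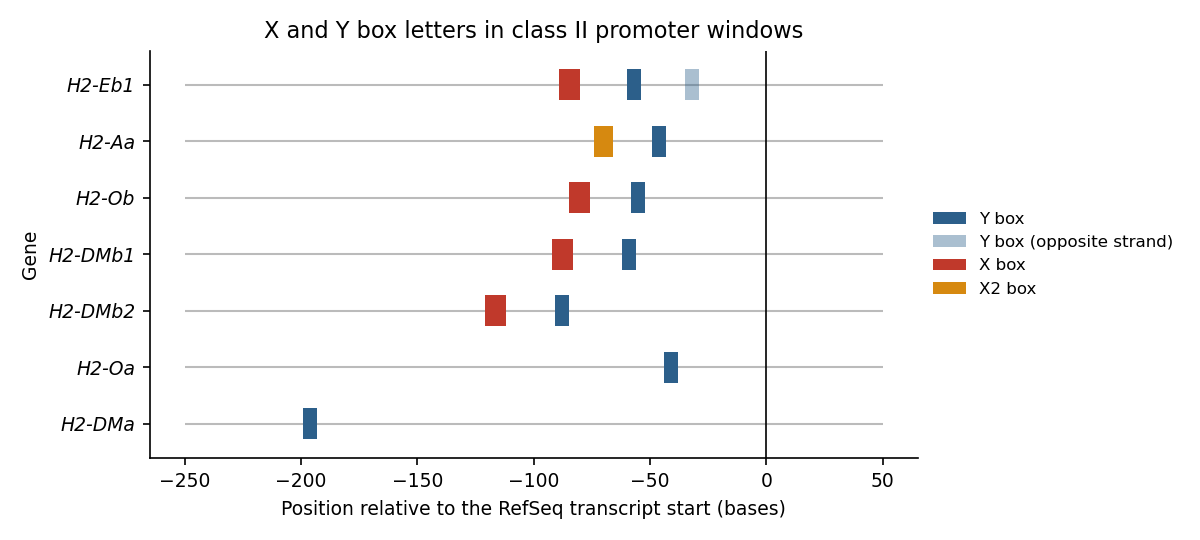
Position of X, X2 and Y box letters in the RefSeq promoter windows of 7 class II genes, with distance from the transcript start in bases on the horizontal axis and 1 gene per line (both *H2-DMa* windows share a line). Bars are as wide as the motif, and pale bars are on the opposite strand. In *H2-Eb1*, *H2-Ob*, *H2-DMb1* and *H2-DMb2* an X box stands upstream of a Y box.

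The files gave expression as FPKM, a level scaled by transcript length and library depth, rounded to 2 decimals. The estimated depth was 29600000 to 31900000 mapped fragments per library. Neutrophil markers were high, though they do not separate PMN-MDSCs from other neutrophils, which the sort gate can also hold: the granule gene *Ngp* and the calprotectin genes *S100a9* and *S100a8* were the 3 most abundant genes by mean FPKM, and the summed level of 12 neutrophil markers was 73002 to 79945 FPKM. *Dhps* was at 2.38 and 2.59 FPKM in *Dhps* cko and at 3.57 and 3.11 FPKM in *Dhps* flox, so transcript of the floxed gene was still detected. *Lyz2*, the locus that carries Cre, was at 2245 and 2380 FPKM in *Dhps* cko and at 6874 and 6544 FPKM in *Dhps* flox. In the comparison of all genes with limma, 1 gene of 17948 (*Gm20716*, outside the rule for named genes) had a Benjamini-Hochberg adjusted p under 0.05. Without adjustment 1257 genes passed 0.05, of which 847 were higher and 410 lower in *Dhps* cko. After rescaling to TPM the split was 633 higher and 494 lower, and without *Dhps* cko replicate 1 it was 412 higher and 414 lower.

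All 10 genes, which include *Ciita* and are together called class II genes below, were detected in every library. Each had a higher mean in *Dhps* cko. Their summed level was 67.78 and 70.90 FPKM in *Dhps* cko and 45.35 and 51.06 FPKM in *Dhps* flox, a 1.44-fold difference. In 9 of the 10 genes both *Dhps* cko libraries lay above both *Dhps* flox libraries, as did 20.0% of all genes tested, and *H2-DMb2* was the exception. With limma, 5 of the 10 genes (*H2-Aa*, *H2-Ab1*, *H2-Eb1*, *H2-Ob* and *Cd74*) were higher at an unadjusted p under 0.05, against 4.72% of all genes. None of the 10 passed the Benjamini-Hochberg adjusted threshold in limma, against 0.00557% of all genes. The median log2 fold change of the 10 was 0.53, beside 0.01 over all 17948 genes, and on log2(FPKM + 1) it was 0.26. Of the 5, only *H2-Ab1*, *H2-Eb1* and *Cd74* were left at an unadjusted p under 0.05 without *Dhps* cko replicate 2, and likewise without *Dhps* flox replicate 1.

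**Figure D2:**
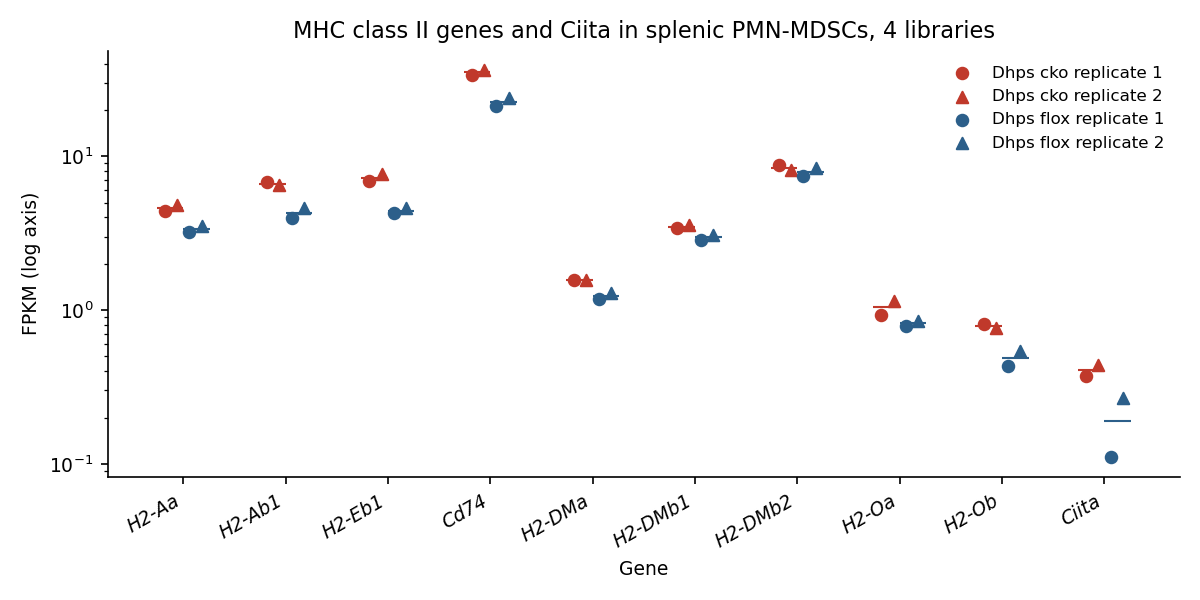
FPKM of the 10 genes (log axis) in each library, with *Dhps* cko in red and *Dhps* flox in blue, circles for replicate 1, triangles for replicate 2 and short lines for group means. Both red points lie above both blue points for every gene except *H2-DMb2*.

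The classical chains form the peptide-binding groove. *H2-Aa*, the alpha chain of I-A (17:34282744-34287823, minus strand, GRCm38), was at 4.44 and 4.81 FPKM in *Dhps* cko and 3.22 and 3.53 FPKM in *Dhps* flox. *H2-Ab1*, its beta chain (17:34257689-34269419, plus strand), was at 6.78 and 6.46 FPKM in *Dhps* cko and 3.96 and 4.60 FPKM in *Dhps* flox. *H2-Eb1*, the beta chain of I-E (17:34305867-34316674, plus strand), was at 6.89 and 7.64 FPKM in *Dhps* cko and 4.28 and 4.59 FPKM in *Dhps* flox. For each chain the lower *Dhps* cko library stood clear of the higher *Dhps* flox library, by 0.91 FPKM for *H2-Aa*, 1.86 for *H2-Ab1* and 2.30 for *H2-Eb1*. The log2 fold change was 0.44 (SE 0.11) for *H2-Aa*, 0.62 (SE 0.11) for *H2-Ab1* and 0.70 (SE 0.10) for *H2-Eb1*. The unadjusted limma p was 0.0099, 0.0025 and 0.00094 in that order, and the adjusted p was 0.54, 0.48 and 0.40. *H2-Ea*, the alpha partner of *H2-Eb1*, is not made as a protein in C57BL/6 mice. It was looked up after its values were seen, and was at 0.60 and 0.71 FPKM in *Dhps* cko and 0.46 and 0.14 FPKM in *Dhps* flox.

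*Cd74*, the chaperone that fills the groove until peptide is loaded, was the most abundant of the 10 genes per length, at 33.84 and 36.34 FPKM in *Dhps* cko and 21.12 and 23.95 FPKM in *Dhps* flox. The gene (18:60803848-60812652, plus strand) ranked 1360 of 17948 by mean FPKM. Both *Dhps* cko libraries lay 9.89 FPKM or more above both *Dhps* flox libraries. The log2 fold change was 0.64 (SE 0.09), with an unadjusted limma p of 0.00070 and an adjusted p of 0.38. The level of *Cd74* per summed level of the 3 classical chains was nearly constant, at 1.87 and 1.92 in *Dhps* cko and 1.84 and 1.88 in *Dhps* flox, and these ranges overlapped.

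The DM genes encode the peptide exchange factor, and their differences were smaller. *H2-DMa* (17:34119541-34139101, plus strand), the alpha chain, was at 1.58 and 1.57 FPKM in *Dhps* cko and 1.18 and 1.29 FPKM in *Dhps* flox. *H2-DMb1* (17:34153072-34160230, plus strand), a beta chain, was at 3.40 and 3.57 FPKM in *Dhps* cko and 2.87 and 3.08 FPKM in *Dhps* flox. *H2-DMb2* (17:34143307-34151555, plus strand), the other beta chain, was at 8.74 and 8.15 FPKM in *Dhps* cko and 7.39 and 8.36 FPKM in *Dhps* flox. The groups were apart for *H2-DMa* and *H2-DMb1* and overlapped for *H2-DMb2*, where the higher *Dhps* flox library exceeded the lower *Dhps* cko library. The log2 fold changes were 0.33 (SE 0.16), 0.22 (SE 0.11) and 0.10 (SE 0.10), with unadjusted limma p of 0.090, 0.10 and 0.34 and adjusted p of 0.77, 0.77 and 0.86. Of the 50-base stretches in *H2-DMb1* transcripts, 27.2% also occur in *H2-DMb2*, so reads could have been split between them. Of those in *H2-DMb2* transcripts, 30.9% occur in other genes (297 in all), and 25.2% occur in *H2-DMb1*. In addition, 10.4% of *H2-DMa* exon bases lie opposite exons of *Brd2*. The summed level of the 3 DM genes per summed level of the 3 classical chains was 0.758 and 0.703 in *Dhps* cko and 0.998 and 1.00 in *Dhps* flox. The *Dhps* cko ratios lay below both *Dhps* flox ratios, a difference that was not tested.

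The DO genes encode the inhibitor of DM and are best known from B cells. *H2-Oa* (17:34092340-34095234, plus strand) was at 0.93 and 1.15 FPKM in *Dhps* cko and 0.79 and 0.85 FPKM in *Dhps* flox. *H2-Ob* (17:34238903-34254414, plus strand) was at 0.81 and 0.77 FPKM in *Dhps* cko and 0.43 and 0.54 FPKM in *Dhps* flox. In both genes the groups did not overlap, with gaps of 0.08 and 0.23 FPKM. The log2 fold change was 0.30 (SE 0.21) for *H2-Oa* and 0.61 (SE 0.24) for *H2-Ob*, the unadjusted limma p was 0.20 and 0.0499, and the adjusted p was 0.81 and 0.71. On log2(FPKM + 1) the fold changes were 0.16 and 0.27, and without *Dhps* cko replicate 2 that of *H2-Oa* was 0.16. *H2-Oa* rested on about 26 to 39 fragments per library and *H2-Ob* on about 35 to 69. Of *H2-Oa* exon bases, 22.8% lie opposite exons of *BC051537*, and reads of the 2 genes cannot be told apart there without strand.

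*Ciita* (16:10480059-10528418, plus strand) was the lowest of the 10 genes, at 0.37 and 0.44 FPKM in *Dhps* cko and 0.11 and 0.27 FPKM in *Dhps* flox. Both *Dhps* cko libraries were above both *Dhps* flox libraries, and the *Dhps* flox libraries differed from each other by more than the gap between the groups. The ratio of means was 2.13 and the log2 fold change 0.85 (SE 0.40), with an unadjusted limma p of 0.089 and an adjusted p of 0.77. About 71 and 82 fragments stood behind the *Dhps* cko values and about 20 and 48 behind the *Dhps* flox values. On log2(FPKM + 1) the fold change of *Ciita* was 0.24, and it was 1.26 without *Dhps* flox replicate 2 and 0.45 without *Dhps* flox replicate 1.

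Ordered by mean FPKM, the genes ran *Cd74*, *H2-DMb2*, *H2-Eb1*, *H2-Ab1*, *H2-Aa*, *H2-DMb1*, *H2-DMa*, *H2-Oa*, *H2-Ob* and *Ciita*. Within each genotype the library ranges of neighbours in this order did not overlap, except those of *H2-Eb1* and *H2-Ab1* in *Dhps* flox. *Cd74* made up 46.6% to 51.3% of the summed level of the 10 genes.

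*Ciita* works through factors that are themselves present in most cells. Of 7 genes for these factors (*Rfx5*, *Rfxank*, *Rfxap*, *Nfya*, *Nfyb*, *Nfyc* and *Creb1*), none had an unadjusted p under 0.05 in limma and 2 had a log2 fold change above 0, with a median of -0.04. *Nfya*, the most abundant of them, was at 14.95 and 14.65 FPKM in *Dhps* cko and 13.59 and 15.42 FPKM in *Dhps* flox, and the groups overlapped. *Nfyc* and *Nfyb* had log2 fold changes of -0.06 (SE 0.07) and -0.04 (SE 0.09). *Rfx5*, the subunit whose name the complex carries, was at 2.80 and 3.14 FPKM in *Dhps* cko and 2.97 and 3.47 FPKM in *Dhps* flox.

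Interferon gamma induces *Ciita* through its receptor, JAK kinases and IRF1. *Ifng* was listed at 0 in all 4 libraries, and none of the 7 other genes of this route in the list had an unadjusted p under 0.05 in limma, with a median log2 fold change of -0.03. *Jak1* and the receptor chain *Ifngr1* had overlapping groups, with log2 fold changes of -0.03 (SE 0.05) and -0.03 (SE 0.06). The other receptor chain, *Ifngr2*, had a log2 fold change of 0.12 (SE 0.08). *Irf1* was at 18.59 and 21.10 FPKM in *Dhps* cko and 17.73 and 17.77 FPKM in *Dhps* flox (log2 fold change 0.16, SE 0.08). *Ifngr2* and *Irf1* were higher in both *Dhps* cko libraries than in both *Dhps* flox libraries, and the other tested genes of this route overlapped. Of 5 other regulators of the *Ciita* promoters, none had an unadjusted limma p under 0.05. *Spi1* (PU.1) had a log2 fold change of 0.09 (SE 0.07), *Bcl6* of 0.06 (SE 0.06) and *Irf8* of 0.28 (SE 0.14). *Irf4*, at 0.57 and 0.55 FPKM in *Dhps* cko and 0.29 and 0.46 FPKM in *Dhps* flox, had 0.50 (SE 0.30). For *Irf4*, *Irf8* and *Bcl6* both *Dhps* cko libraries lay above both *Dhps* flox libraries, as for 20.0% of all genes tested. *Prdm1*, which encodes the *Ciita* repressor Blimp-1, was at 0.12 and 0.19 FPKM in *Dhps* cko and 0.23 and 0.48 FPKM in *Dhps* flox.

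Among 7 enzymes that prepare peptides or trim *Cd74*, 4 were higher in *Dhps* cko at an unadjusted p under 0.05 in limma, against 4.72% of all genes. None passed the adjusted threshold, and the median log2 fold change was 0.17. *Ctss*, cathepsin S, which makes the late cut in *Cd74*, was at 52.14 and 54.44 FPKM in *Dhps* cko and 41.69 and 39.67 FPKM in *Dhps* flox. Its log2 fold change was 0.39 (SE 0.06, unadjusted limma p 0.0013, adjusted p 0.41). The thiol reductase *Ifi30* had a log2 fold change of 0.36 (SE 0.11), the protease legumain (*Lgmn*) of 0.35 (SE 0.07) and cathepsin D (*Ctsd*) of 0.17 (SE 0.05). The groups did not overlap in these 4 genes, which were picked by their p. Cathepsin B (*Ctsb*) had a log2 fold change of 0.12 (SE 0.06), and *Sppl2a*, which clears the last membrane stub of *Cd74*, overlapped between the groups at 10.59 and 11.28 FPKM in *Dhps* cko and 12.29 and 10.63 FPKM in *Dhps* flox. These enzymes also work in lysosomes without class II.

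Of 3 genes for surface turnover, none had an unadjusted limma p under 0.05. The ubiquitin ligase genes *Marchf1* and *Marchf8*, of which *Marchf1* is known to send class II to lysosomes, had log2 fold changes of 0.06 (SE 0.09) and -0.07 (SE 0.11). *Cd83*, which opposes *Marchf1*, was at 1.63 and 1.61 FPKM in *Dhps* cko and 1.06 and 1.34 FPKM in *Dhps* flox. Of 6 genes for costimulation none had an unadjusted limma p under 0.05, with log2 fold changes of 0.02 (SE 0.09) for *Icosl*, 0.25 (SE 0.20) for *Cd86* and 0.24 (SE 0.13) for *Cd274*. The MHC class I list was added after values were seen. In it 4 of 7 genes were higher at an unadjusted p under 0.05 in limma, against 4.72% of all genes, and the median log2 fold change was 0.23. *H2-K1*, a classical class I heavy chain, was at 49.41 and 49.59 FPKM in *Dhps* cko and 36.35 and 38.92 FPKM in *Dhps* flox. *Nlrc5*, the class I counterpart of *Ciita*, was at 0.75 and 0.89 FPKM in *Dhps* cko and 0.40 and 0.36 FPKM in *Dhps* flox. The groups did not overlap in either gene. *Cd74* per *H2-K1* was 0.685 and 0.733 in *Dhps* cko and 0.581 and 0.615 in *Dhps* flox.

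**Figure D3:**
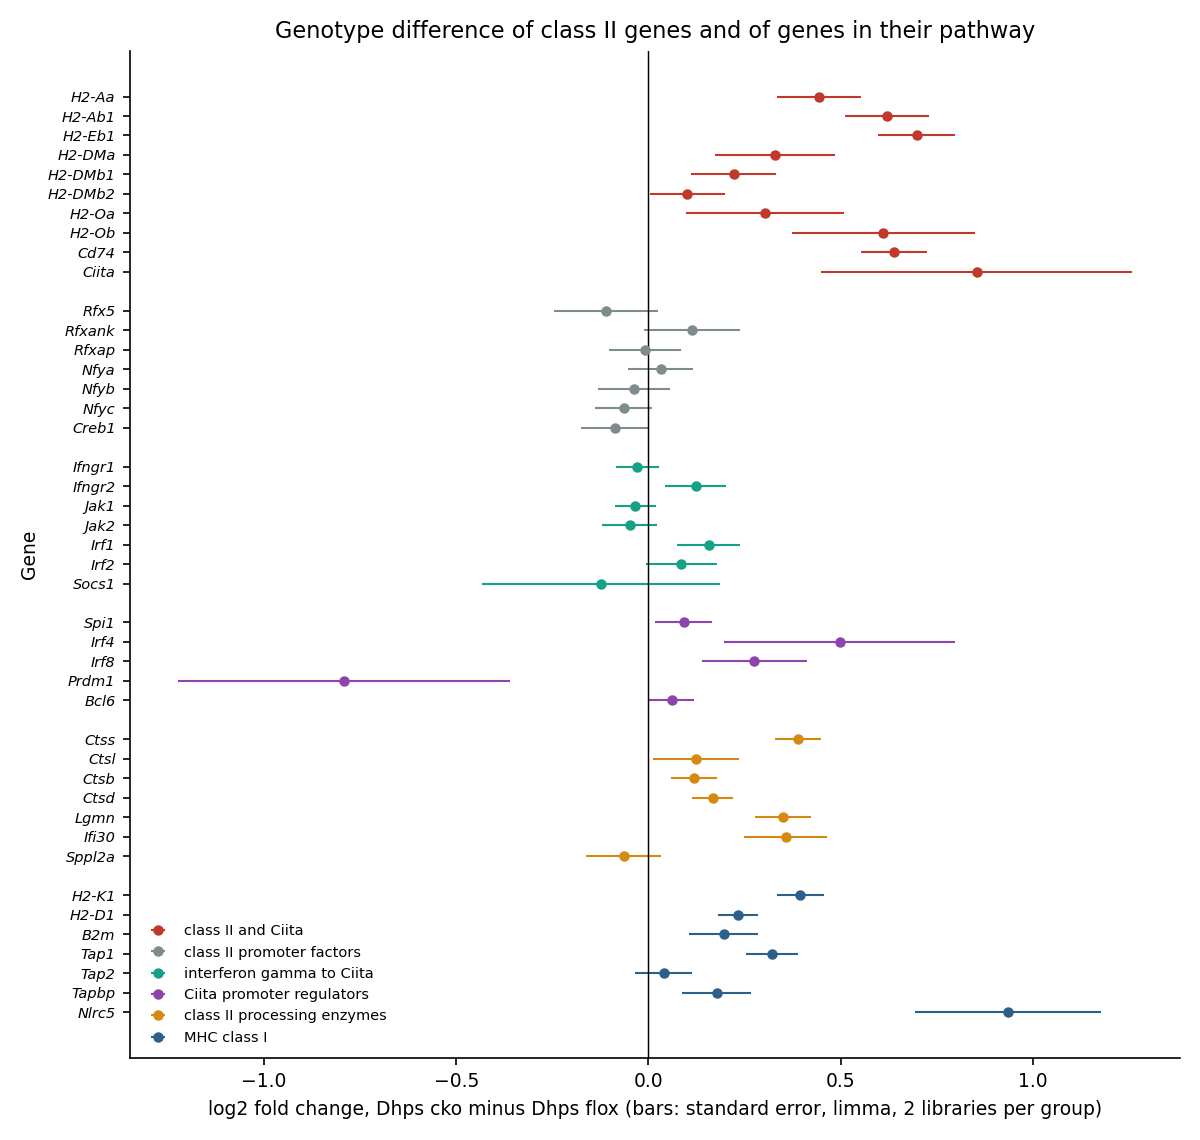
log2 fold change (*Dhps* cko minus *Dhps* flox) of the class II genes and *Ciita* and of genes in their pathway, with the limma standard error as bars and 2 libraries per genotype. The class II genes lie between 0.10 and 0.85, the promoter factors between -0.11 and 0.11.

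Marker lists of other spleen cells had higher sums in *Dhps* cko as well, although no marker passed the adjusted threshold in limma and some, such as *Clec9a*, *Cd3d* and *Siglecf*, overlapped between the groups. In bulk RNA, more cells of a type and more RNA per cell cannot be told apart. The summed level of 9 B cell markers was 24.44 and 25.34 FPKM in *Dhps* cko and 14.22 and 19.69 FPKM in *Dhps* flox, a ratio of 1.47 beside 1.44 for the class II genes. Of the 9, 3 (*Cd79a*, *Ms4a1* and *Cd22*) were higher at an unadjusted p under 0.05 in limma. The share over all genes was 4.72%, which also stands beside the counts of the following lists. No marker of this or the following lists was at 0 in all libraries. *Cd79a*, part of the B cell receptor, was at 6.81 and 7.80 FPKM in *Dhps* cko and 3.70 and 5.30 FPKM in *Dhps* flox, and *Cd79b* had a log2 fold change of 0.35 (SE 0.15). Class II genes per B cell markers came to 2.77 and 2.80 in *Dhps* cko and 3.19 and 2.59 in *Dhps* flox, so the groups overlapped. The immunoglobulin gene *Ighm*, added after values were seen, was at 40.56 and 42.91 FPKM in *Dhps* cko and 27.03 and 31.99 FPKM in *Dhps* flox.

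Markers of dendritic cells, 10 in all, summed to 6.72 and 6.17 FPKM in *Dhps* cko and 4.06 and 5.10 FPKM in *Dhps* flox. None of the 8 that were tested had an unadjusted limma p under 0.05, and their median log2 fold change was 0.46. In 6 of them both *Dhps* cko libraries lay above both *Dhps* flox libraries, as did 20.0% of all genes tested. The 2 markers below the filter were *Zbtb46*, at 0.11 and 0.04 FPKM in *Dhps* cko and 0.02 and 0.05 FPKM in *Dhps* flox, and *Xcr1*, at 0.11 and 0.10 FPKM against 0.04 and 0.04 FPKM. *Itgax* (CD11c) had a log2 fold change of 0.46 (SE 0.20), *Clec9a* of 0.07 (SE 0.19) and *Cd209a* of 1.39 (SE 0.58). Class II genes per dendritic cell markers came to 10.1 and 11.5 in *Dhps* cko and 11.2 and 10.0 in *Dhps* flox, which overlapped.

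Macrophage markers, 12 in all, summed to 183.61 and 188.49 FPKM in *Dhps* cko and 149.54 and 143.10 FPKM in *Dhps* flox, and 4 of them (*C1qa*, *C1qb*, *C1qc* and *Cd68*) were higher at an unadjusted p under 0.05 in limma. The list had a median log2 fold change of 0.26, and its lowest member was *Spic*, a transcription factor of red pulp macrophages, at -0.01. *Spic*, *Mrc1* (0.08), *Cd5l* (0.12) and *Vcam1* (0.14) overlapped between the groups. *C1qa*, which encodes a complement chain made by macrophages, was at 25.73 and 28.31 FPKM in *Dhps* cko and 18.62 and 18.67 FPKM in *Dhps* flox. For 7 monocyte markers the sum was 250.87 and 238.48 FPKM in *Dhps* cko and 205.19 and 213.88 FPKM in *Dhps* flox, and *Ly6c2*, *Ms4a6c* and *Ccr2* were higher at an unadjusted p under 0.05 in limma. Most of the monocyte sum was *Ly6c2*, at 192.22 and 183.75 FPKM in *Dhps* cko and 157.95 and 160.82 FPKM in *Dhps* flox. *Csf1r* and *Cx3cr1* had log2 fold changes of 0.11 (SE 0.07) and 0.12 (SE 0.17). Per summed level of the macrophage markers and of the monocyte markers, the summed class II genes stayed higher in both *Dhps* cko libraries. The first ratio was 0.369 and 0.376 in *Dhps* cko against 0.303 and 0.357 in *Dhps* flox, the second 0.270 and 0.297 against 0.221 and 0.239.

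T cells and eosinophils of mice carry little class II. For 8 T cell markers the sum was 18.47 and 14.98 FPKM in *Dhps* cko and 11.86 and 8.01 FPKM in *Dhps* flox, with *Trbc2*, *Trac* and *Lck* higher at an unadjusted p under 0.05 in limma. Much of the difference between these sums came from *Trbc2*, at 8.25 and 5.36 FPKM in *Dhps* cko and 3.57 and 1.51 FPKM in *Dhps* flox. *Cd3d* and *Cd4* had log2 fold changes of 0.07 (SE 0.14) and 0.34 (SE 0.17). Eosinophil markers, 7 in all, summed to 98.91 and 94.12 FPKM in *Dhps* cko and 80.26 and 81.68 FPKM in *Dhps* flox. Most of this sum was *Ear2*, at 84.92 and 81.68 FPKM in *Dhps* cko and 70.94 and 72.62 FPKM in *Dhps* flox. *Ear2*, *Prg2* and *Ear1* were higher at an unadjusted p under 0.05 in limma. *Siglecf* and *Ccr3* had log2 fold changes of 0.05 (SE 0.14) and 0.24 (SE 0.15). Of 12 neutrophil markers 1, *Ly6g*, was higher at an unadjusted p under 0.05 in limma, with a log2 fold change of 0.29 (SE 0.07), and the list had a median of 0.08. The 5 primary granule genes, which mark early neutrophil stages, summed to 81.25 and 54.51 FPKM in *Dhps* cko and 46.28 and 56.53 FPKM in *Dhps* flox. All 5 had a log2 fold change above 0, with a median of 0.55, and none had an unadjusted p under 0.05 in limma. *Elane* (0.57, SE 0.33), *Mpo* (0.59, SE 0.28) and *Ms4a3* (0.08, SE 0.10) overlapped between the groups, while *Prtn3*, at 13.24 and 7.72 FPKM in *Dhps* cko and 6.54 and 7.19 FPKM in *Dhps* flox, did not. The sort gate (CD11b+ Ly6C lo/- Ly6G+) would remove most lymphocytes and Ly6C-high monocytes, and transcripts of their markers were nonetheless listed in these libraries. The part of these cells in the class II difference was not tested.

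**Figure D4:**
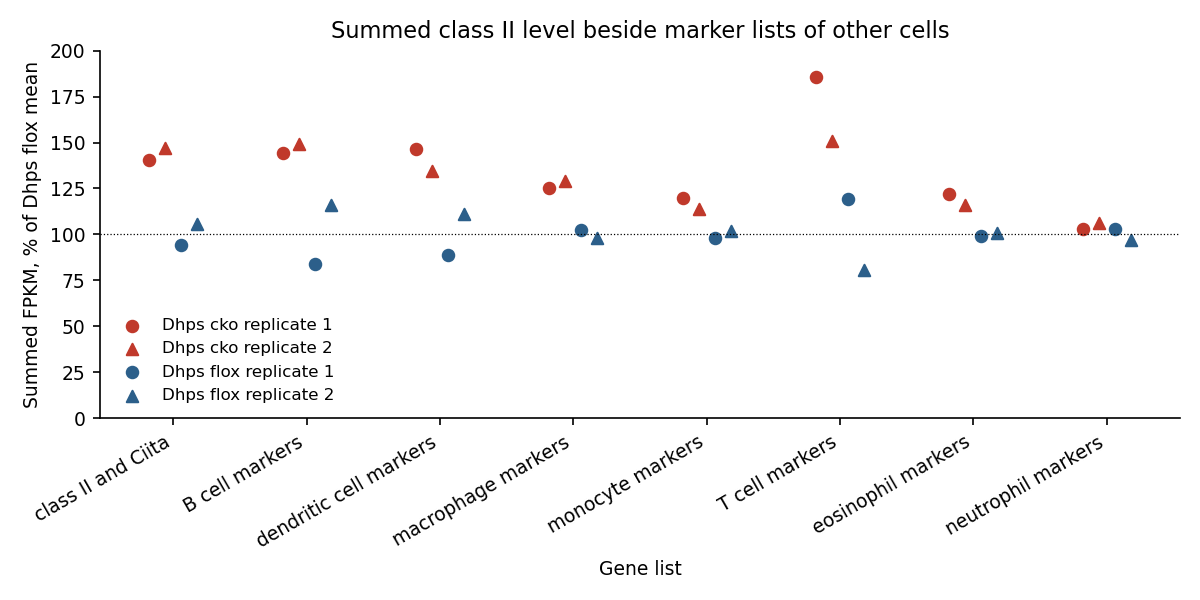
Summed FPKM of the class II genes and *Ciita* and of 7 marker lists in each library, as a percentage of the *Dhps* flox mean (dotted line at 100), with *Dhps* cko in red and *Dhps* flox in blue. The class II genes, B cell and dendritic cell markers lie at similar heights (ratios of 1.44, 1.47 and 1.41), and the neutrophil markers lie close to 100. The T cell sum lies higher (1.68), with much of its difference coming from *Trbc2*.

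Levels of sex-linked genes also differed between the libraries of the genotypes, although none of those below passed the adjusted threshold in limma. A set of 4 genes of the Y chromosome (*Uty*, *Kdm5d*, *Ddx3y* and *Eif2s3y*), added after values were seen, summed to 7.07 and 8.07 FPKM in *Dhps* cko and 17.64 and 15.62 FPKM in *Dhps* flox, and *Xist* was at 27.54 and 20.27 FPKM against 16.25 and 17.17 FPKM. Transcripts of both kinds were thus detected in all 4 libraries. The part of sex in the class II values was not tested.

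The 5 genes outside these lists whose centred log2(FPKM + 0.1) over the 4 libraries lay nearest to that of the summed class II genes were *2510002D24Rik*, *Plin5*, *Col6a1*, *Gm15344* and *Irf9*, at Euclidean distances of 0.025 to 0.068. With 4 libraries, a profile of this kind holds little information. *Irf9*, a transcription factor of the interferon response, was at 13.89 and 14.33 FPKM in *Dhps* cko and 9.43 and 9.96 FPKM in *Dhps* flox, the most abundant of the 5.

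The direction of the 10 genes was the same under all alternatives in which each was tested (other pseudocounts, filters, scalings and variance models, the replicate block and leaving out each library). *Cd74*, *H2-Eb1* and *H2-Ab1* had an unadjusted p under 0.05 in 15 of 15 alternatives (limma fits and a linear model of each gene alone), *H2-Aa* in 13 of 15 and *H2-Ob* in 5 of 14. *H2-DMb2* ran from 0.01 to 0.19 and *Ciita* from 0.24 to 1.26 on the log2 scale. The lowest adjusted p for any of the 10 over these alternatives was 0.13 in limma, for *Cd74*.

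**Figure D5:**
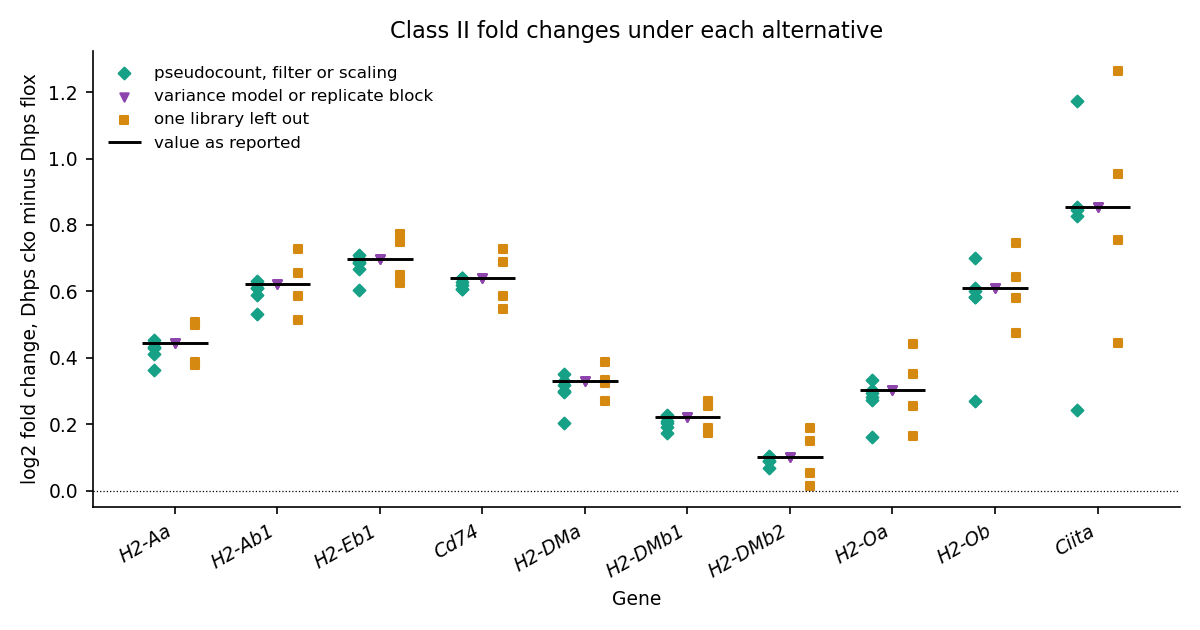
log2 fold change (*Dhps* cko minus *Dhps* flox) of each of the 10 genes as reported (black line) and under each alternative (points, by kind of change). All points lie above 0, and those of *Ciita* are spread most widely.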

How the data were processed

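Total RNA of splenic PMN-MDSCs was sequenced by the authors in 4 libraries, 2 of each genotype. The authors filtered reads with Cutadapt, aligned them with HISAT2 (mm10 per the submitters' notes) and calculated FPKM with StringTie and ballgown; whether strand was used is not given in the sources used here. The deposited FPKM are rounded to 2 decimals and hold no counts. Spacing of the low values of single-exon genes gave the depth estimate, and 37.4% to 39.5% of these lay within 0.15 of a whole fragment (30% by chance), so whole reads could not be recovered and fragments per gene are approximate. Intervals from counts are therefore not given.

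The genotype comparison used limma 3.58.1 (lmFit, eBayes with a mean-variance trend; R 4.3.3) on log2(FPKM + 0.1) for 17948 genes whose mean reached 0.1 FPKM, with Benjamini-Hochberg adjustment over all of them and a threshold of 0.05. All 10 class II genes passed this filter. Fold changes are on the log2(FPKM + 0.1) scale, which understates those of low genes. An exact permutation test of 2 against 2 libraries cannot give a p below 0.33 and was not used. Coordinates and overlaps are from GENCODE M21 (28511 of 28585 identifiers matched), promoters from RefSeq GRCm38.p6. Python 3.11.15, numpy 2.4.6, pandas 2.3.3 and matplotlib 3.10.9 were used.

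The class II genes and the lists were chosen with earlier results of these data known. Genes were named by rule: the 10 genes, *Dhps* and *Lyz2*, from each list the 3 highest by mean FPKM and those with an unadjusted p under 0.05, and the 5 nearest profiles. Genes of the lists named beyond it (*Rfx5*, *Rfxank*, *Rfxap*, *Creb1*, *Irf1*, *Irf4*, *Prtn3*, *Spic*, *Mrc1*, *Cd5l*, *Vcam1*, *Prdm1*, *Sppl2a*, *Ifng*, *Zbtb46* and *Xcr1*) were chosen after values were seen, as were the class I, immunoglobulin, Y-linked, *Xist* and *H2-Ea* entries. Of these lists, 2 genes are not reported here and were left out of the sums and counts of their lists.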

Additional observations from a re-analysis of the deposited data

How the results depend on the processing

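No log2 fold change of the 10 class II genes changed sign. The number of genes with an adjusted p under 0.05 in limma was 1 as reported, 0 with a pseudocount of 0.01 or without the filter, 4 among genes whose mean reached 1 FPKM, 2 with quantile normalization, 2 with robust eBayes, and 0 whichever library was left out, where the lone library is assumed to vary like the other group. A linear model of each gene alone, outside limma, gave 12. The number with an unadjusted p under 0.05 was 1257 as reported, 819 at a mean of at least 1 FPKM (10629 genes tested), and 746 to 1608 without 1 library (746 without *Dhps* cko replicate 2 and 826 without *Dhps* cko replicate 1). For the class II genes, the count at an unadjusted p under 0.05 was 3 to 6 and the median log2 fold change 0.412 to 0.617 without 1 library, the lowest median without *Dhps* flox replicate 1. These counts of class II genes came from fits with a single library in 1 genotype. The share of all genes higher in *Dhps* cko at an unadjusted p under 0.05 in limma also changed with the library left out. The counts therefore cannot be compared between these fits, and no conclusion is drawn from them. With a pseudocount of 1 the median log2 fold change of the class II genes was 0.256. Class II genes per marker level, *Dhps* cko over *Dhps* flox, gave 0.963 for B cell markers (0.873 to 1.07 without 1 library), 1.02 for dendritic cell, 1.13 for macrophage and 1.23 for monocyte markers. *Ciita*, *H2-Oa* and *H2-Ob* were not tested at a mean of at least 1 FPKM. The causes were not tested. The labels do not say whether replicate numbers pair the libraries. The correlation over genes of the replicate deviations was -0.057, and with 1 deviation per genotype it cannot decide this. With the replicate block in limma, 0 genes had an adjusted p under 0.05, 1082 an unadjusted one, and 4 of the 10 class II genes an unadjusted one. *Ciita* rested on about 20 to 82 fragments per library, and power at such low levels was not measured.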
